A study of Mus musculus with 6 samples.

Results

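A set of 10 genes of the common gamma chain and common beta chain cytokine receptors was examined in mouse cDNT, the double negative T cells that lack CD4 and CD8 and are converted from CD4+CD25- T cells. They were chosen by receptor family with earlier results of these data known, so that their count is a description, and are Il2ra, Il2rb, Il2rg, Il4ra, Il7r, Il15ra, Il21r, Csf2rb, Csf2rb2 and Jak3. These are 10 of the 29393 genes counted in each library, and all 10 were among the 14916 genes with enough counts to be tested. The study asked how IL-10, a cytokine that M2 macrophages secrete, alters cDNT survival and function. Sorted cDNT of adult C57BL/6 mice (spleen in the sample labels) were kept for 24 h with IL-10 at 50 ng/ml (W/ IL-10, 3 libraries) or without it (W/O IL-10, 3 libraries). According to the methods, the cells had been made ex vivo by coculture of CD4+CD25- T cells with IL-2 and mature dendritic cells. Both groups therefore had earlier contact with IL-2, the ligand of 3 of the chains described here. The methods name anti-CD3/CD28 antibodies together with IL-10 for the stimulation. They do not state whether the W/O IL-10 cells received these antibodies. Nothing states whether the 3 libraries of a group came from separate cultures or mice, so that p-values measure only the spread between these libraries, which may be technical.

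The common gamma chain, encoded by Il2rg, is shared by the receptors for IL-2, IL-4, IL-7, IL-9, IL-15 and IL-21. Each cytokine adds a chain of its own, and the kinase JAK3 binds the gamma chain while JAK1 binds the partner chain. IL-2 and IL-15 also share the signalling chain Il2rb, and Il2ra and Il15ra give them high affinity. In T cells these receptors carry signals for growth, survival and effector differentiation, mainly through STAT5, STAT6 and STAT3. The common beta chain, Csf2rb, serves the receptors for IL-3, IL-5 and GM-CSF, is best known from myeloid cells and signals through JAK2. Mice carry an additional, closely related beta chain, Csf2rb2, which is specific to the IL-3 receptor.

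The close relation of the beta chains is shown by their sequences, since it limits how well reads can be assigned to either gene. The coding sequences of GENCODE release M21 (build GRCm38) are 2691 bases long for Csf2rb and 2637 bases for Csf2rb2, and 2505 of 2631 aligned bases were identical (95.2%). The opening 120 bases from the start codon are given below, with the 4 differing bases in capitals.
Csf2rb: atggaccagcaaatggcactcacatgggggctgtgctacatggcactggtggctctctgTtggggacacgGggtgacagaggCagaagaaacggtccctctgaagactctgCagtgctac
Csf2rb2: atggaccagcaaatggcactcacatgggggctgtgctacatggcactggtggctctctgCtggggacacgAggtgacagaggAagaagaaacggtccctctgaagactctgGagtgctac
The longest identical run was 242 bases, from coding base 2083 to 2324 in both genes, and a read that falls wholly inside it cannot be assigned.
Csf2rb and Csf2rb2: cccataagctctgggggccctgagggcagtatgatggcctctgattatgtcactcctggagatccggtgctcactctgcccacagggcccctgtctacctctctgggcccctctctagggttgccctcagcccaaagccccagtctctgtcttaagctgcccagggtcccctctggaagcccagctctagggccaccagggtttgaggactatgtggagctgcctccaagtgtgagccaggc
Of all 50-base stretches of the coding sequence, 26.0% of those of Csf2rb occur in Csf2rb2 and 26.5% of those of Csf2rb2 in Csf2rb. Values for each of these genes are therefore uncertain where the counting could move reads between them.

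IL-10 split the 10 genes in both directions. Jak3 and Il21r rose by about 1.6-fold, Csf2rb and Csf2rb2 fell by about 1.6-fold, and the other 6 were not called. A gene was called where it changed at least 1.5-fold with p under 0.05 in the quasi-likelihood test of edgeR, adjusted by Benjamini-Hochberg over all tested genes. The share of all tested genes that was called was 1.45%, with 0.778% upward and 0.677% downward, against 4 of the 10, 2 in each direction. By adjusted p alone these were again 4 of the 10, against 2.19% of all tested genes. The groups did not overlap in 8 of the 10 genes, compared with 22.6% of all tested genes. Each of these counts takes in both Csf2rb and Csf2rb2, which are alike in sequence and fell together, so that they are not 2 independent results. The median log2 fold change was 0.03 over the 10 genes and 0.01 over all tested genes. Levels are given as CPM, read counts scaled to library size by the TMM method, and CPM per kb of exon length where genes are compared with each other.

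**Figure D1:**
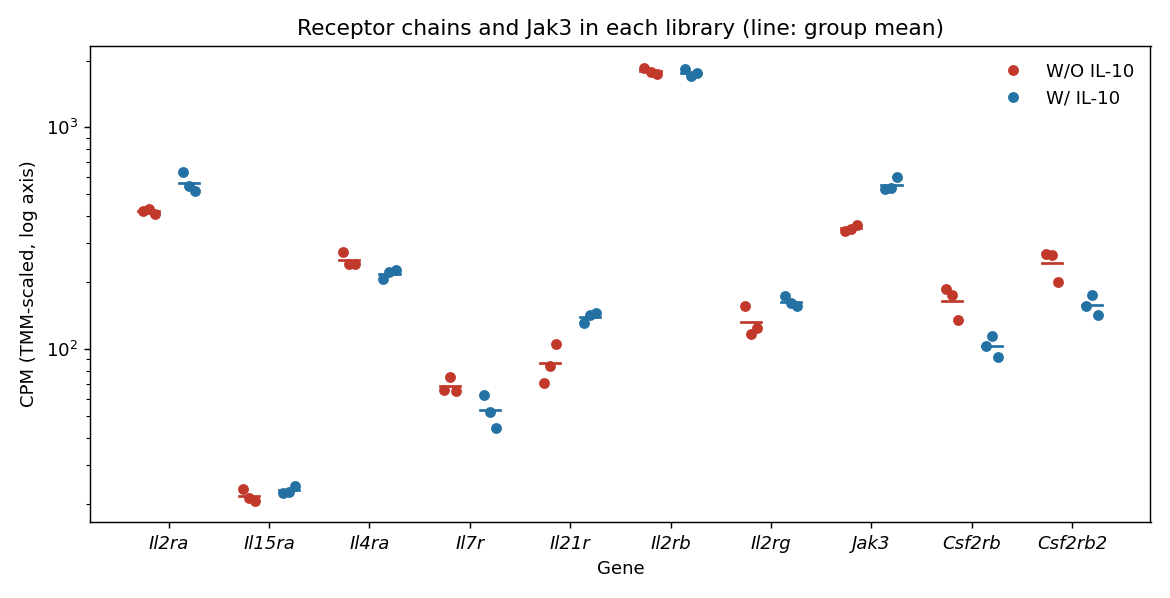
CPM (log axis) of the 10 genes in each of the 6 libraries, W/O IL-10 in red and W/ IL-10 in blue, with points for libraries and lines for group means. The groups are apart for Jak3, Il21r, Csf2rb and Csf2rb2, while the points of Il2rb and Il15ra overlap.

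Libraries held between 22953260 and 23967088 counts W/O IL-10, against 21619420 to 22958891 W/ IL-10, at which 3 counts correspond to 0.125 to 0.139 CPM (counting error only). The 9 T cell markers summed to 1778 to 2149 CPM W/O IL-10 and 2251 to 2320 CPM W/ IL-10, and Cd4 had at most 38 counts in a library. Cd8a, a gene the double negative label would place low, had 2316 to 3786 counts per library. The 6 mast cell and basophil markers were also present, summing to 1174 to 1460 CPM W/O IL-10 and 898 to 1124 CPM W/ IL-10. Macrophage and monocyte markers summed to 5.06 to 11.8 CPM, neutrophil markers to 1.58 to 6.13 CPM, B cell markers to 61.3 to 157 CPM and dendritic cell markers to 30.2 to 61.0 CPM. In bulk libraries, fewer cells of a type and less RNA per cell cannot be told apart.

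Among the ligand-specific chains, Il21r, the receptor of IL-21 (ENSMUSG00000030745, chromosome 7 of GRCm38, 125603429 to 125633570), had 70.3, 83.8 and 106 CPM in W/O IL-10 replicates 1, 2 and 3. It had 131, 143 and 146 CPM in the W/ IL-10 replicates. All W/ IL-10 libraries were above all W/O IL-10 libraries, and the W/O IL-10 libraries differed more among themselves. The means were 86.8 ± 18.2 and 140.0 ± 7.90 CPM (SD, n = 3). On the log2 scale this was a rise of 0.69 with an SE of 0.14 (edgeR, adjusted p = 0.0424). With each library left out in turn the log2 fold change stayed between 0.55 and 0.85, but Il21r was called only without W/O IL-10 replicate 3. Without W/O IL-10 replicate 1 the adjusted p was 0.0113 at a fold change under 1.5, and with any of the others left out it rose to as much as 0.205 (edgeR).

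Il4ra, the chain that binds IL-4 and also forms part of the IL-13 receptor, lies next to Il21r on chromosome 7 (125552120 to 125579474) with 24.0 kb and no protein-coding gene of the table between them. Il4ra had 275, 242 and 242 CPM W/O IL-10 and 207, 223 and 228 CPM W/ IL-10. Its groups did not overlap, yet the log2 fold change of -0.21 (95% interval -0.40 to -0.02) did not pass (adjusted p = 0.286, edgeR). The per-kb ratio of Il21r to Il4ra, which does not depend on scaling between libraries, was 0.461, 0.627 and 0.792 W/O IL-10 and 1.14, 1.16 and 1.16 W/ IL-10. Per kb, Il21r was thus below Il4ra in all 3 W/O IL-10 libraries and above it in all 3 W/ IL-10 libraries. In CPM, without division by exon length (3324 and 6002 bases), Il21r was below Il4ra in every library. Gm44876, on the opposite strand, covers 9.5% of the exon bases of Il4ra and had at most 6 counts per library. Reads from the shared part may be missing from the count of Il4ra, so that which gene is higher per kb is uncertain. The log2 ratio differed by 0.91 (-0.71 ± 0.39 against 0.21 ± 0.01, SD, n = 3, two-sided exact permutation p = 0.1, the smallest that 3 libraries against 3 allow). A family of 6 such ratios was chosen after the values were seen, and after Benjamini-Hochberg adjustment over the 6 this exact p was 0.12.

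Il2ra, which encodes CD25 and raises the affinity of the IL-2 receptor (ENSMUSG00000026770, chromosome 2, 11642807 to 11693193), had 422, 429 and 409 CPM W/O IL-10 and 627, 544 and 518 CPM W/ IL-10. Every W/ IL-10 library was higher. The means were 419.9 ± 10.1 and 563 ± 56.9 CPM (SD, n = 3), with a log2 fold change of 0.42 and a 95% interval of 0.22 to 0.63. This missed both limits of the call (adjusted p = 0.0548, edgeR). With each library left out the log2 fold change was 0.34 to 0.48 and the fold change remained under 1.5, at an adjusted p of 0.0312 to 0.171 (edgeR). The adjusted p was 0.00102 in the DESeq2 Wald test and 0.0377 in edgeR after the GC and length correction. The fold change was under 1.5 there too, so that only the fold limit was missed in every fit.

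Il15ra, the IL-15 counterpart of Il2ra, begins 12.1 kb downstream of it (11705290 to 11734317). It was the lowest of the 10 genes, with 23.4, 21.3 and 20.8 CPM W/O IL-10 and 22.5, 22.8 and 24.2 CPM W/ IL-10. The groups overlapped, and the 95% interval of the log2 fold change of 0.08 was -0.13 to 0.30 (adjusted p = 0.724, edgeR). The per-kb ratio of Il2ra to Il15ra was 14.0 to 15.6 W/O IL-10 and 16.7 to 21.7 W/ IL-10, without overlap (exact permutation p = 0.1).

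Il7r, which encodes CD127, the IL-7 binding chain (ENSMUSG00000003882, chromosome 15, 9505788 to 9530176), had 65.8, 74.9 and 64.6 CPM W/O IL-10 and 62.3, 52.4 and 44.3 CPM W/ IL-10. The lowest W/O IL-10 library and the highest W/ IL-10 library lay close together. The log2 fold change of -0.37 (95% interval -0.65 to -0.09) did not pass (adjusted p = 0.202, edgeR). Il7r has 40.6% GC, the lowest of the 10 genes, and the 1538 tested genes within 2 percentage points of it had a median log2 fold change of 0.19. Once GC content and length were corrected for, Il7r was called, at a log2 fold change of -0.60 (edgeR, adjusted p = 0.0263).

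**Figure D2:**
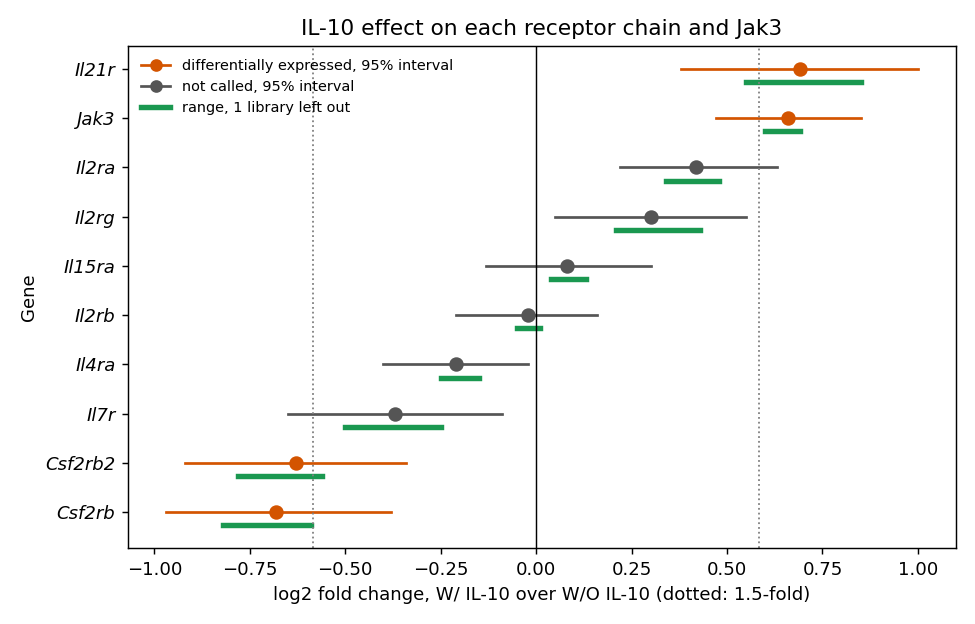
Log2 fold change (W/ IL-10 over W/O IL-10) of the 10 genes with its 95% interval, orange where differentially expressed and grey where not, and a green bar for the range with each library left out in turn. Il21r and Jak3 lie above the dotted 1.5-fold limit and Csf2rb and Csf2rb2 below its negative, and the green bars of Il21r, Csf2rb2 and Jak3 end at 0.55, -0.56 and 0.60.

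Of the shared chains, Il2rb (ENSMUSG00000068227, chromosome 15, 78479256 to 78495271) was by far the most abundant, with 1861, 1778 and 1744 CPM W/O IL-10 and 1838, 1699 and 1766 CPM W/ IL-10. The groups overlapped. Its log2 fold change of -0.02 had a 95% interval of -0.21 to 0.16 (adjusted p = 0.931, edgeR). The per-kb ratio of Il2ra to Il2rb was 0.170, 0.181 and 0.176 W/O IL-10 and 0.256, 0.241 and 0.220 W/ IL-10, so that it was higher in each W/ IL-10 library (log2 difference 0.44, exact permutation p = 0.1, the smallest possible).

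Il2rg, the common gamma chain itself (ENSMUSG00000031304, chromosome X, 101264378 to 101268255), had 157, 117 and 125 CPM W/O IL-10 and 173, 161 and 157 CPM W/ IL-10. W/O IL-10 replicate 1 lay just under the lowest W/ IL-10 library. The log2 fold change was 0.30 with a 95% interval of 0.05 to 0.55 (adjusted p = 0.253, edgeR), and it was 0.21 to 0.43 with each library left out. The transcript Gm20489, on the same strand, covers 30.5% of the exon bases of Il2rg and had at most 1 count per library, and reads from the shared part cannot be told apart.

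Jak3, the kinase bound to the gamma chain (ENSMUSG00000031805, chromosome 8, 71676296 to 71690575), had 342, 348 and 362 CPM W/O IL-10. It had 528, 531 and 599.9 CPM W/ IL-10. The gap between the groups was larger than the range within either of them. The rise was 1.58-fold, or 0.66 on the log2 scale with a 95% interval of 0.47 to 0.85 and an SE of 0.08 (edgeR, adjusted p = 0.00831). It remained between 0.60 and 0.69 with each library left out, while the adjusted p was 0.0580 without W/O IL-10 replicate 2 and also without W/ IL-10 replicate 3. Jak3 has 60.8% GC, the highest of the 10 genes, where the median tested gene of like GC changed by -0.11, and it was 0.79 once GC and length were corrected for. Insl3, on the same strand, covers 7.5% of the exon bases of Jak3 and had counts of 183 to 234 W/O IL-10, against 285 to 361 W/ IL-10.

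The per-kb ratio of Jak3 to Il2rg was 0.970, 1.32 and 1.29 W/O IL-10 and 1.36, 1.47 and 1.70 W/ IL-10. The groups did not overlap, by a narrow margin, and the log2 ratio differed by 0.35 (exact permutation p = 0.1). The level of the ratio would be too high in both groups if reads from the part shared with Gm20489 were not counted for Il2rg.

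The summed levels of T cell markers and coreceptors were higher W/ IL-10, as were Jak3 and Il21r. Of the 9 T cell markers 7 had a log2 fold change above 0, none was called, and Cd5 was at -0.47 (edgeR, adjusted p = 0.0467). The 3 coreceptor genes summed to 129.8 to 165 CPM W/O IL-10 and 198 to 233 CPM W/ IL-10. Cd8b1 was called (log2 fold change 0.67, adjusted p = 0.0306, edgeR), and Cd8a was higher by 0.56 at an adjusted p of 0.0369, under 1.5-fold. Of the 8 dendritic cell markers 3 were tested, 2 with a log2 fold change above 0 and 1 below. Itgax, an integrin chain, was 20.4 CPM W/O IL-10 and 43.2 CPM W/ IL-10 on average (log2 fold change 1.09, adjusted p = 0.00383, edgeR), which was most of the rise of the summed list from between 30.2 and 33.2 to between 50.1 and 61.0 CPM. Xcr1 had 3.89 CPM W/O IL-10 and 5.89 CPM W/ IL-10 on average without overlap (log2 fold change 0.60, adjusted p = 0.184, edgeR). Zbtb46, a factor of conventional dendritic cells, had 6.70 CPM W/O IL-10 and 4.94 CPM W/ IL-10 without overlap (adjusted p = 0.212, edgeR). Ccl17, too low to be tested, had 5 to 18 counts and 0 to 6 counts. Clec9a and Siglech had at most 1 count in every library. The part of these markers in the rise of Jak3 and Il21r was not tested.

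**Figure D3:**
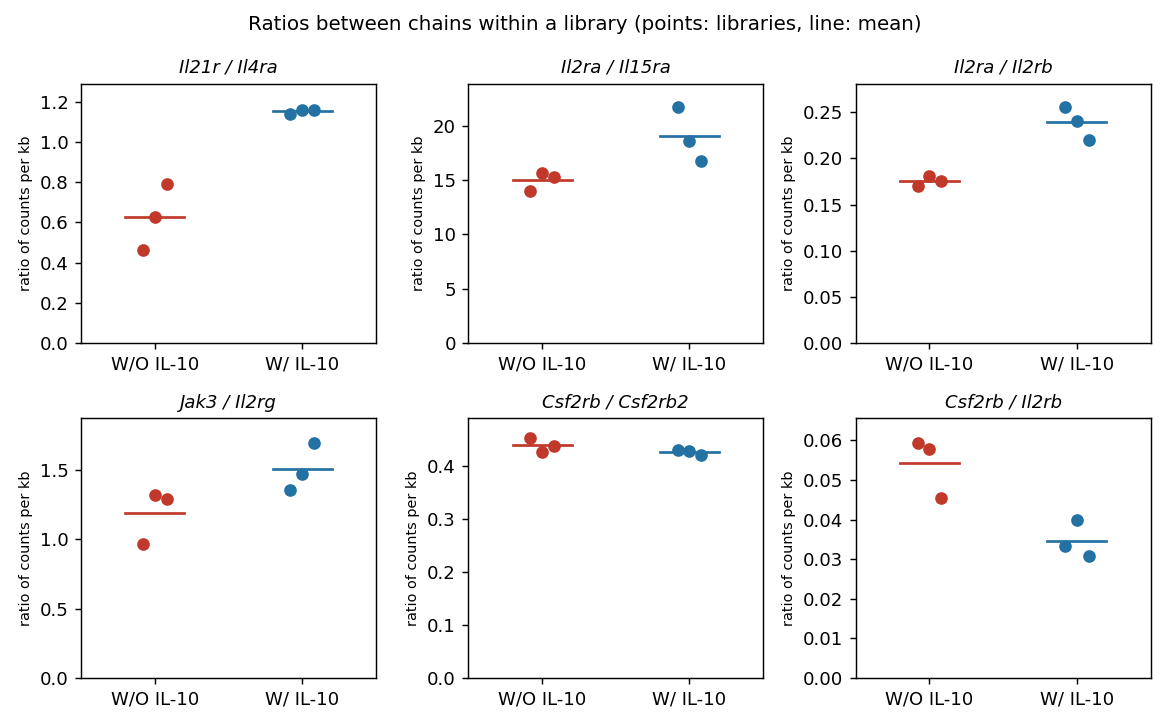
Ratio of counts per kb between pairs of chains in each library, W/O IL-10 in red and W/ IL-10 in blue, with lines for the means and each axis starting at 0. The ratio of Il21r to Il4ra lies below 1 in the 3 W/O IL-10 libraries and above 1 in the 3 W/ IL-10 libraries, while that of Csf2rb to Csf2rb2 stays between 0.420 and 0.452.

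Ranked by CPM per kb in the W/O IL-10 libraries, Il2rb was highest (419 ± 14.0, SD, n = 3), followed by Il2ra (73.5 ± 1.77), Jak3 (65.5 ± 1.91), Il2rg (55.7 ± 8.83), Csf2rb2 (51.8 ± 8.35) and Il4ra (42.2 ± 3.22). Il21r (26.1 ± 5.49), Csf2rb (22.8 ± 3.79), Il7r (14.7 ± 1.21) and Il15ra (4.92 ± 0.309) closed the order. Neighbours from Jak3 to Il4ra overlapped between libraries, as did Il21r and Csf2rb, whereas Il2rb and Il2ra each stood clear of the next gene. In the W/ IL-10 libraries Jak3 (103 ± 7.63 CPM per kb) and Il2ra (98.6 ± 9.96) overlapped in places 2 and 3. Il21r (42.1 ± 2.38) moved from the seventh to the fifth place and Csf2rb2 (33.4 ± 3.46) from the fifth to the seventh. Il2rb (412 ± 16.2) and Il15ra (5.21 ± 0.209) kept the first and last place. Full exon lengths were used, including parts shared with other genes. If reads from such parts were left out of the counting, Il2rg, Csf2rb and Csf2rb2 would be placed too low.

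The beta chains fell together. Csf2rb (ENSMUSG00000071713, chromosome 15, 78325752 to 78353847) had 187, 175 and 135 CPM in replicates 1, 2 and 3 W/O IL-10 compared with 103, 115 and 92.2 CPM W/ IL-10. Replicate 3 was the lowest library in both groups, and the groups did not overlap. Csf2rb was 1.60-fold lower, or -0.68 on the log2 scale with an SE of 0.13 (edgeR, adjusted p = 0.0407).

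Csf2rb2 (ENSMUSG00000071714, chromosome 15, 78282507 to 78305721), which lies 20.0 kb from Csf2rb on the opposite strand, had 270.1, 267 and 200.0 CPM W/O IL-10 and 157, 176 and 143 CPM W/ IL-10. The libraries followed the same order within each group as for Csf2rb. It was 1.55-fold lower, or -0.63 on the log2 scale with an SE of 0.13 (edgeR, adjusted p = 0.0447). The per-kb ratio of Csf2rb to Csf2rb2 was 0.452, 0.427 and 0.438 W/O IL-10 and 0.430, 0.428 and 0.420 W/ IL-10, with overlapping groups (exact permutation p = 0.3). With the counts of both genes summed, so that reads moved from either gene to the other no longer matter, the log2 fold change was -0.65 (adjusted p = 0.0447, edgeR). Reads that fit both genes and were left out of the counting would be missing from this sum too. Il2rb, 125 kb beyond Csf2rb on the same chromosome, did not pass, and the per-kb ratio of Csf2rb to Il2rb fell from between 0.0455 and 0.0593 to between 0.0308 and 0.0400.

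Calls for the beta chains rested on few libraries. The log2 fold change of Csf2rb was -0.82 to -0.59 with each library left out, and Csf2rb was called without W/O IL-10 replicate 1 or 3 and not without any other (adjusted p up to 0.205, edgeR). That of Csf2rb2 was -0.78 to -0.56, and Csf2rb2 was called only without W/O IL-10 replicate 3. Without W/O IL-10 replicate 1 it fell below the 1.5-fold limit at an adjusted p of 0.0200, and without any other library the adjusted p was up to 0.219 (edgeR). With GC content and length corrected for, Csf2rb2 changed by less than 1.5-fold (log2 fold change -0.55, adjusted p = 0.0215).

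The summed mast cell and basophil markers were lower W/ IL-10, as were the beta chains. Cpa3, a mast cell and basophil protease, had 685 ± 117 CPM W/O IL-10 and 516 ± 89.4 CPM W/ IL-10 (SD, n = 3, edgeR log2 difference -0.41, adjusted p = 0.260). Kit, the stem cell factor receptor, had 422 ± 7.83 and 316 ± 12.4 CPM (log2 fold change -0.42, adjusted p = 0.0269, below the 1.5-fold limit). Fcer1a and Ms4a2, chains of the high-affinity IgE receptor, had log2 fold changes of -0.10 and -0.56 without passing (adjusted p = 0.775 and 0.278, edgeR). Of the 6 markers 5 had a log2 fold change below 0, none was called, and all had more than 3 counts in every library. Mcpt4 was at 0.22 (adjusted p = 0.770, edgeR). Their summed CPM was 1391, 1460 and 1174 W/O IL-10 and 1046, 1124 and 898 W/ IL-10, again lowest in replicate 3 of both groups.

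Other marker lists were lower W/ IL-10 as well. All tested B cell (6), macrophage and monocyte (3) and neutrophil (3) markers had a log2 fold change below 0. None of them was called, and the summed levels of these lists overlapped between the groups. All 6 NK and innate lymphoid markers were below 0 and Ncr1 was called, with a summed level of 735 to 787 CPM W/O IL-10 and 538 to 589 CPM W/ IL-10. Most of that difference was Eomes, a factor that T cells express too, with 517 CPM W/O IL-10 and 364 CPM W/ IL-10 on average (log2 fold change -0.51, adjusted p = 0.0176, edgeR). Of the 6 erythroid and platelet markers 4 were tested, all below 0 and none called, and the list summed to 26.1 to 73.3 CPM W/O IL-10 and 18.9 to 25.2 CPM W/ IL-10. Itga2b, the platelet integrin chain, made up most of it with 36.2 and 19.0 CPM on average (adjusted p = 0.0846, edgeR). The cells had been sorted by flow cytometry before the stimulation, and the study defines mouse DNT by CD3 and the absence of NK1.1. Klrb1c, the gene of NK1.1 and one of the 6 NK and innate lymphoid markers, was nevertheless present. It had 969, 727 and 673 counts W/O IL-10 and 639, 614 and 544 counts W/ IL-10 (log2 fold change -0.27, adjusted p = 0.444, edgeR). The part of any of these markers, those of mast cells and basophils included, in the fall of the beta chains was not tested.

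**Figure D4:**
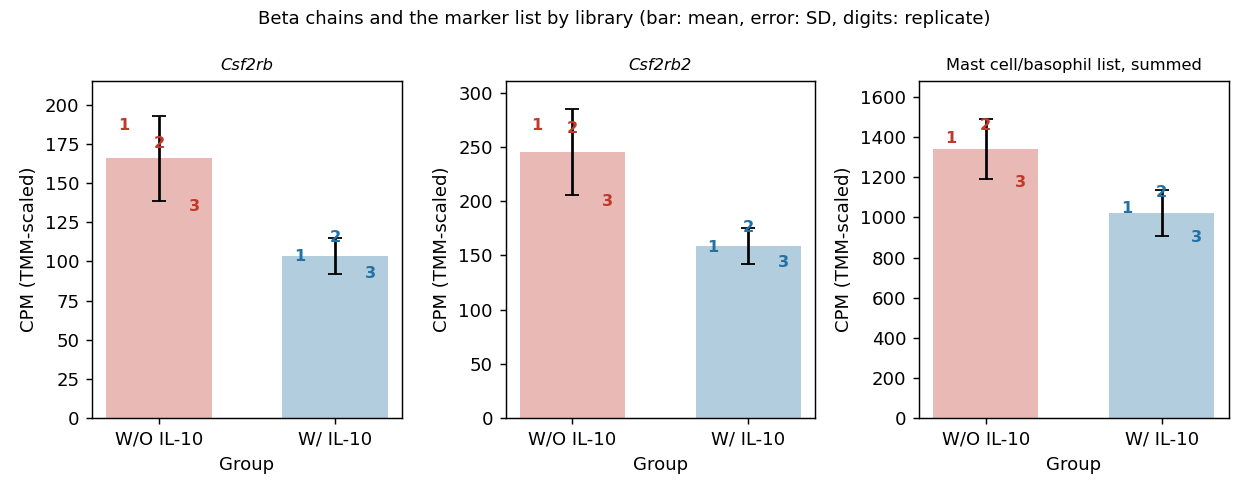
CPM of Csf2rb, of Csf2rb2 and of the 6 mast cell and basophil markers summed, by group, with bars for the mean, error bars for the SD and digits for the replicate at its own value. W/ IL-10 libraries lie below W/O IL-10 libraries in all 3 panels, and replicate 3 is the lowest of its group in each.

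Promoter sequences of RefSeq (GRCm38.p6, 250 bases before to 50 after the start) were found for 8 of the 10 genes, in 9 entries. Csf2rb and Il2rb had no entry. The motif TTCNNNGAA, the core that STAT factors bind, reads the same on both strands and occurred in the entries of Il7r and Csf2rb2, at -142 and -15 from the start. It occurred in 6.91% of the promoters of tested genes. The wider form with 4 free bases between TTC and GAA, known from STAT6, was in no entry of the 10 genes and in 5.42% of those promoters. The window of Csf2rb2 is shown because it is the only differentially expressed gene of the 10 with a match, which is in capitals (chr15:78305672-78305971, minus strand).
Csf2rb2: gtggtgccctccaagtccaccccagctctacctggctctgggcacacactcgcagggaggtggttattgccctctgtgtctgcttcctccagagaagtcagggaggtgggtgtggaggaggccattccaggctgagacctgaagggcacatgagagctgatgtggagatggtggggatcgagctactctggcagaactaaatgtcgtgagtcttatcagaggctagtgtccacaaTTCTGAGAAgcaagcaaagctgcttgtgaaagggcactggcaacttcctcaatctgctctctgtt
A match is a description of the letters and does not show binding.

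Other genes of the same receptor systems were taken from lists of 56 genes, of which 49 were tested. Of these 3 were called upward and none downward, against 0.778% and 0.677% of all tested genes. At any fold change 5 upward and 1 downward had an adjusted p-value under 0.05 (1.21% and 0.979% of all tested genes). The median log2 fold change of the 49 genes was -0.02. Of 5 tested further receptor chains none passed, with a median of -0.44 compared with 0.01 for all tested genes. Crlf2, the TSLP receptor, had 118 ± 5.35 and 128 ± 11.7 CPM (SD, n = 3, adjusted p = 0.562, edgeR). Il3ra, which joins the beta chains to bind IL-3, had 50.2 ± 3.26 CPM W/O IL-10 and 46.2 ± 7.73 CPM W/ IL-10 (adjusted p = 0.698). The alpha chains for GM-CSF and IL-5 and the IL-9 receptor were looked at after their values were seen. Csf2ra counts were 436 to 455 W/O IL-10 against 238 to 355 W/ IL-10 (log2 fold change -0.44, adjusted p = 0.132). Il5ra had 23 to 25 and 9 to 14 counts (adjusted p = 0.248). Il9r, the remaining partner of the gamma chain, had 45, 39 and 31 counts W/O IL-10 and 10, 12 and 15 counts W/ IL-10, a log2 fold change of -1.51 (standard error 0.32) that just missed the threshold (adjusted p = 0.0506, edgeR).

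Ligand genes were low in both groups. Of 11 ligands 9 had a row and 5 were tested, none of which passed. Il13 had 84 to 135 counts W/O IL-10 and 54 to 98 W/ IL-10 (adjusted p = 0.713, edgeR). Csf2, the gene of GM-CSF, had 27 to 58 and 15 to 31 counts (adjusted p = 0.446). Il21, looked at after its values were seen as the ligand of Il21r, had at most 3 counts in any library.

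Kinases, STAT factors and adaptors did not pass. Of the 8 other JAK and STAT genes none was called, with a median log2 fold change of -0.06. Jak1, the partner kinase of Jak3, had 1017 ± 74.9 and 1005 ± 63.0 CPM (SD, n = 3, edgeR log2 difference -0.02, adjusted p = 0.956). Stat3, which IL-10 and IL-21 both activate, had 382 ± 34.6 CPM W/O IL-10 and 498 ± 13.1 CPM W/ IL-10 without overlap (log2 fold change 0.38, adjusted p = 0.0720). None of 12 adaptor and signalling genes passed (median 0.01). Those with the most CPM were Pik3cd, a PI3K catalytic subunit (log2 fold change 0.13, adjusted p = 0.500), and Ptk2b, the kinase PYK2 (0.06, adjusted p = 0.734, edgeR).

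Among 7 feedback inhibitors only Socs3, the suppressor induced by STAT3, was called. Its level was 10.6 ± 0.906 CPM W/O IL-10 and 37.4 ± 7.11 CPM W/ IL-10 (SD, n = 3), higher by 1.82 on the log2 scale (edgeR, adjusted p = 0.00102). Ptpn6, the phosphatase SHP-1, did not pass (log2 fold change 0.30, adjusted p = 0.104). Of 12 target genes 4 rose and 1 fell by adjusted p-value, against 1.21% and 0.979% of all tested genes. Pim2, a survival kinase, rose from 85.7 ± 8.16 to 234 ± 7.15 CPM (log2 fold change 1.45, adjusted p = 2.48e-04), and Gzmb, the gene of granzyme B, from 2305 ± 63.3 to 5190 ± 132 CPM (log2 fold change 1.17, adjusted p = 5.27e-04). Pim1 (log2 fold change 0.52, adjusted p = 0.0190) and Batf, an AP-1 factor (0.48, adjusted p = 0.0390), rose by less than 1.5-fold. Ccnd2, the gene of cyclin D2, had a log2 fold change of -0.39 (edgeR, adjusted p = 0.0422), also by less than 1.5-fold.

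**Figure D5:**
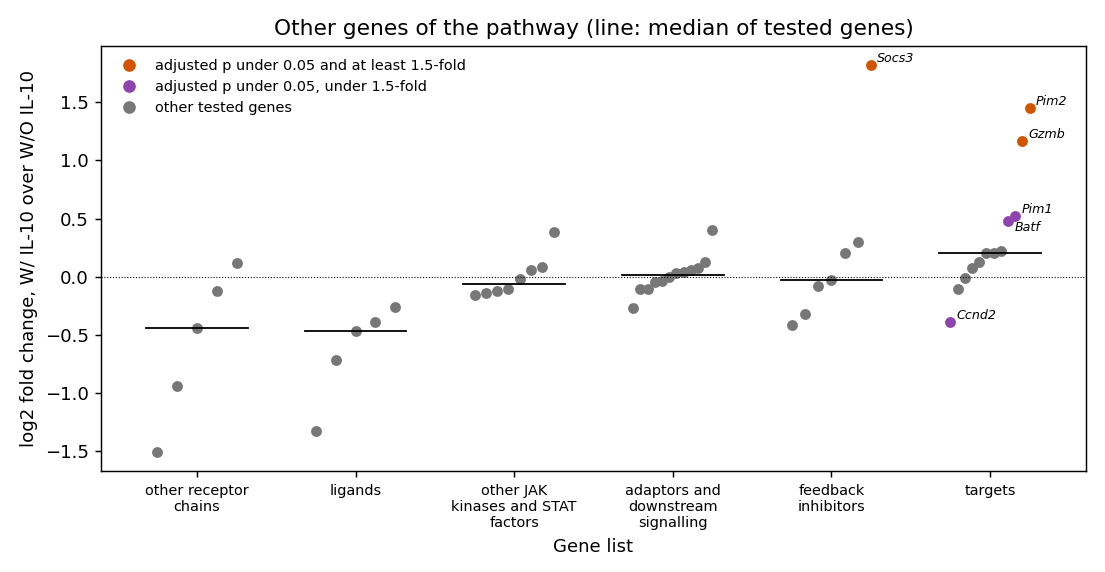
Log2 fold change (W/ IL-10 over W/O IL-10) of the 49 tested pathway genes by list, with orange points for genes called differentially expressed, purple for those with an adjusted p-value under 0.05 at a smaller fold change, grey for the rest and a line for the list's median. Socs3, Pim2 and Gzmb stand above 1, and the medians of the receptor chain and ligand lists lie at -0.44 and -0.47.

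The tested genes whose log2 CPM followed each called gene most closely over the 6 libraries were named as a description, since 6 libraries in 2 groups leave many genes alike. For Jak3 they were Itgax, Chst11 and Mxd1 (Pearson r of 0.997, 0.996 and 0.996). For Il21r they were Tgfb3, Ezh2 and Neurl1b (0.998, 0.997 and 0.996). Csf2rb and Csf2rb2 shared Oasl2 and Gas2l1 as the nearest, with r of 0.997 and 0.995 for Csf2rb and 0.999 and 0.999 for Csf2rb2. The third was Gata2, a factor of mast cells and basophils, for Csf2rb (0.994) and E330020D12Rik for Csf2rb2 (0.996).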

How the data were processed

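Transcriptomes of cDNT kept with or without IL-10 (3 libraries per group) were deposited as whole-number counts per Ensembl gene, not normalized. The submitters' processing notes name HISAT2, HTSeq and GRCm38, whereas the paper's methods name TopHat, Cufflinks and UCSC annotation, and a NEBNext kit where the labels name a TruSeq kit. Versions and the use of strand are not given in the sources used here. TMM factors (0.953 to 1.03) and the quasi-likelihood test were computed with edgeR 4.0.16 in R 4.3.3. The test covered the 14916 genes that reached 10 counts in 3 or more libraries, with Benjamini-Hochberg adjustment over all of them, and a gene was called at an adjusted p-value under 0.05 and a 1.5-fold change or more. The standard error is the log2 fold change divided by the square root of F. Ratios within a library were compared with two-sided exact permutation tests. The steps were tested on simulated counts drawn with the means and dispersions of these data. Those counts held no GC effect and no reads shared between genes, so that they do not test for either.

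Symbols, exon lengths, GC content and overlaps came from GENCODE release M21 (GRCm38), which held 29332 of the 29393 identifiers. Coding sequences were aligned with MAFFT 7.526, and plots were drawn with Python 3.11.15 and matplotlib 3.10.9. Alternatives were size factors as in DESeq2, the DESeq2 1.42.0 Wald test, no count filter, the replicate number as a block, a correction for GC content and length by splines with 5 degrees of freedom, with and without the block, summed counts for Csf2rb and Csf2rb2, and each library left out. The 10 genes, the gene lists and the alternatives were chosen with earlier results of these data known. Named genes are the 10 genes, pathway genes with an adjusted p-value under 0.05, filled up to 2 per list with those of highest mean CPM where fewer passed, defining markers, and the 3 genes most alike in pattern to each called gene, while genes outside this rule are marked as chosen after their values were seen.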

Additional observations from a re-analysis of the deposited data

How the results depend on the processing

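Of the 10 genes, 4 were called with the size factors of DESeq2 in edgeR, the DESeq2 Wald test, no count filter and the replicate block. The correction for GC content and length also left 4, but with Il7r (log2 fold change -0.60, and -0.60 with the block) in place of Csf2rb2 (-0.55, and -0.54 with the block), and it turned Il2rb from -0.02 to 0.06 (0.06 with the block), with no call. With each library left out in turn 0 to 4 of the 10 were called, 4 without W/O IL-10 replicate 3 and 0 without W/O IL-10 replicate 2 or W/ IL-10 replicate 3. The log2 fold changes then ranged from 0.55 to 0.85 for Il21r, -0.82 to -0.59 for Csf2rb, -0.78 to -0.56 for Csf2rb2, 0.60 to 0.69 for Jak3 and -0.05 to 0.01 for Il2rb, 0.01 being without W/ IL-10 replicate 2. Fewer libraries leave fewer degrees of freedom, and over all genes 35 to 254 were called (31 to 124 upward, 4 to 130 downward), compared with 217 with all 6 (116 and 101). The DESeq2 Wald test called 359 (176 upward, 183 downward), no filter 639 (302 and 337) and the GC and length correction with the block 354 (175 and 179). Of the pathway lists 3 genes were called, and 5 after the GC and length correction. The cause of these differences was not tested.

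The replicate numbers in the labels are not stated to mark pairs, and the deviations of same-numbered libraries from their group means correlated by 0.0524, -0.0573 and 0.114 across genes. A fit with the replicate block called 196 genes, and the calls of the 10 genes did not change. The depth of 21619420 to 23967088 counts limits the statements on Il9r, Il5ra and the ligand genes, which had few counts.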
